A study of Mus musculus with 2 samples.

Results

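The cells described here were CD8 T cells of mouse tumours that were rich in Gzma, the transcript of granzyme A. They were chosen by raw counts of unique molecular identifiers (UMIs), each of which stands for 1 captured transcript. A kept barcode was a CD8 cell with at least 2 UMIs of Cd3d, Cd3e and Cd3g together, at least 1 of Cd8a and Cd8b1, and none of Cd4 or Foxp3. It was Gzma-rich with at least 3 Gzma UMIs and at most 2 UMIs of each of 4 other gene groups, namely Gzmd, Gzme and Gzmf, the cycling genes Mki67, Top2a and Birc5, the interferon-induced genes Ifit1, Ifit3 and Rsad2, and the cytokines Il2, Il3 and Csf2. This gave 2024 cells, out of 8155 CD8 cells and 16770 kept cells of any kind. Of these, 1975 came from the mSTAR1302 library and 49 from the vehicle library. Because Gzma chose the cells, its level in them is a description, and so is every gene compared between them and the other CD8 cells of the same library.

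Granzymes are serine proteases that cytotoxic lymphocytes store in granules and release onto target cells, where perforin, encoded by Prf1, opens the membrane. Granzyme A cleaves after basic residues and granzyme B after aspartate, and granzyme K is a trypsin-like relative of granzyme A. CD8 T cells in tumours range from circulating effector and memory states to cells under chronic antigen stimulation, which carry inhibitory receptors such as PD-1 (Pdcd1) and LAG-3 (Lag3) and the transcription factor Tox.

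The study profiled tumour T cells of BALB/c mice aged 4 to 6 weeks that carried EMT6 tumours, a transplantable mammary carcinoma line, under the skin. Mice were randomised at tumour volumes of 80 to 150 mm3 to mSTAR1302, given into the peritoneum for 2 weekly cycles, or to vehicle. Per its makers, mSTAR1302 joins interleukin-2, a T cell growth factor, to an antibody against receptor beta chains that use the segments Trbv13-2 and Trbv13-3. Cells positive for CD4 or CD8 were taken from digested tumours with magnetic beads before 10x Genomics 3' libraries were made. The labels do not state how many mice gave each library. Each group was 1 library, so no difference below has a replicate check, no test was made, library and treatment cannot be told apart, and each 95% interval covers counting error only.

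The libraries held 96486469 UMIs (mSTAR1302) and 110026997 UMIs (vehicle). Barcodes numbering 9155 and 7615 passed the cell filters, and 17 kept barcodes occurred in both. Gzma-rich cells had a median of 6442 UMIs and 1940 genes in the mSTAR1302 library and 8136 UMIs and 2296 genes in the vehicle library. The other CD8 cells had medians of 6616.5 UMIs (4122 mSTAR1302 cells) and 9889 UMIs (2009 vehicle cells). Summed UMIs were 14002105 in mSTAR1302 Gzma-rich cells and 433785 in vehicle Gzma-rich cells, so 1 UMI was worth far more of the vehicle total, and vehicle values below about 50 CPM (counts per 1000000 summed UMIs) rest on few transcripts.

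Gzma and Gzmk lie near each other on chromosome 13 of GRCm38 (GENCODE M21), both on the minus strand, at chr13:113093825-113100981 and chr13:113171608-113225908 with a gap of 70626 bases. Their promoters are shown with that of Plac8. Gzmk and Plac8 were higher in mSTAR1302 Gzma-rich cells, as were Ly6c2 and Klf3, while Gzma was set by the rule. Each promoter is given as the 300 bases from 250 before to 50 after the start, 5′ to 3′ on the gene's strand, from RefSeq on GRCm38.p6 (chr13:113100932-113101231, chr13:113180916-113181215 and chr5:100572156-100572455, all minus strand). Capitals mark matches on either strand to GGTGTGA (T-box factors), TGTGGTT (RUNX factors) and GGGTGG (Kruppel-like factors, or KLF).
Gzma: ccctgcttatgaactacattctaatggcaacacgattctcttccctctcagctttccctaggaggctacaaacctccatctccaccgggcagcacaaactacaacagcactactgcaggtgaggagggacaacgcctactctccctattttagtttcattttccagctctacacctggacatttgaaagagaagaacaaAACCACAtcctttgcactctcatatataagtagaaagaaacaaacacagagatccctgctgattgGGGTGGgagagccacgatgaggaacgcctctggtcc
Gzmk: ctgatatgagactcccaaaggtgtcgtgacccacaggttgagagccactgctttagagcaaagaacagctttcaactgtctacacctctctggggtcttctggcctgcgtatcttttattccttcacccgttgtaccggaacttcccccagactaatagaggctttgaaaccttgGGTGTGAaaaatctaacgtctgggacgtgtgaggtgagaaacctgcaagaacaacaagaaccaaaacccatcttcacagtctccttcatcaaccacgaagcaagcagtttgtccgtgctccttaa
Plac8: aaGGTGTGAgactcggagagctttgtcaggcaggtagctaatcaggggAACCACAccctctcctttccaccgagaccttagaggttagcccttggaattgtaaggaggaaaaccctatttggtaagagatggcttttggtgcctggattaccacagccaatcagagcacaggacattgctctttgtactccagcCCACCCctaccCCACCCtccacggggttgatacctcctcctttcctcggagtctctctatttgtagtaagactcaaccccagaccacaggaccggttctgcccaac
Gzma held a RUNX match at position -51 relative to the start and a KLF match at position 14, Gzmk a T-box match at -75, and Plac8 a T-box match at -248, a RUNX match at -202 and KLF matches at -56 and -45. Of the other markers, Ly6c2 (chr15:75111922-75112221, minus strand) held a RUNX match at -180 and Klf3 (chr5:64803271-64803570, plus strand) 3 KLF matches. Across 27025 mouse promoters of the same length, 3.96% held GGTGTGA, 5.37% TGTGGTT and 30.9% GGGTGG. Searches for the AP-1 motif TGANTCA, in 7.93% of promoters, and the ETS motif CCGGAAGT, in 4%, gave no match in these 5. A match describes the letters and not a bound site. Promoters matched for 5 of the 6 markers, not for Ccl5.

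Gzma-rich cells were the more frequent in the mSTAR1302 library. After mSTAR1302, 32.4% of the 6097 CD8 cells were of this kind (interval 31.2 to 33.6%, exact by Clopper-Pearson), against 2.38% of the 2058 vehicle CD8 cells (1.77 to 3.14%). The gap was 30.0 percentage points (28.6 to 31.3, by Newcombe's method). Among CD8 cells that passed the 4 exclusions the shares were 43.4% of 4551 and 3.55% of 1380. Of all kept cells they were 21.6% in the mSTAR1302 library and 0.643% in the vehicle library. Beads enriched both lineages, and recovery was not measured here.

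The exclusions removed cells that also met the Gzma threshold. CD8 cells with at least 3 Gzma UMIs numbered 2664 in the mSTAR1302 library and 85 in the vehicle library. Of these, 445 and 13 were over the limit for cycling genes, 210 and 17 for interferon-induced genes, 50 and 1 for Gzmd, Gzme and Gzmf, and 37 and 8 for Il2, Il3 and Csf2, with overlap. The comparison with all other CD8 cells therefore includes 689 mSTAR1302 cells (16.7%) and 36 vehicle cells (1.79%) that were as rich in Gzma.

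Within the rule, Gzma counts were skewed. Gzma-rich cells had a median of 10 Gzma UMIs in the mSTAR1302 library (quartiles 5 and 22, highest 275) and 9 in the vehicle library (quartiles 4 and 18, highest 110). The tenth of cells with the most Gzma held 40.2% and 45.3% of all Gzma UMIs of those groups. Summed, Gzma stood at 2639 CPM in mSTAR1302 Gzma-rich cells against 579 CPM in the other CD8 cells, and at 2234 CPM in vehicle Gzma-rich cells against 29.2 CPM in the others.

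**Figure D1:**
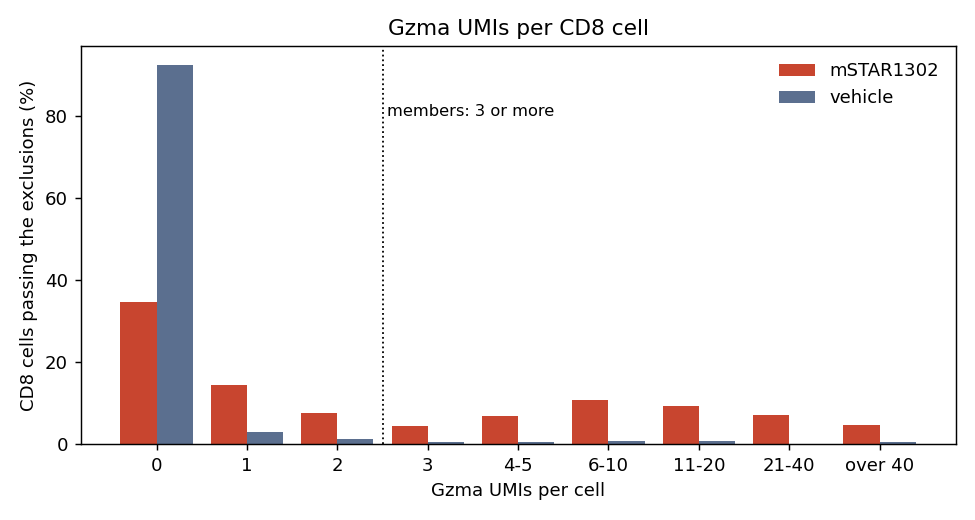
Share of CD8 cells that passed the exclusions (vertical axis, percent) by Gzma UMIs per cell (horizontal axis) in the mSTAR1302 (4551 cells) and vehicle (1380 cells) libraries; the dotted line marks the threshold. Cells without Gzma were 34.5% of mSTAR1302 and 92.3% of vehicle cells, and mSTAR1302 cells spread over every bin above the threshold.

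Gzma UMIs were also found outside CD8 cells, more so in the mSTAR1302 library. Droplets of 100 to 500 UMIs, taken as near-empty, held Gzma at 916 CPM in the mSTAR1302 library and 17.6 CPM in the vehicle library. Cells with Cd4 and Foxp3, the genes of regulatory T cells, held at least 1 Gzma UMI in 28.8% of 146 mSTAR1302 cells (median 6460 UMIs) and 1.54% of 1365 vehicle cells (median 8340). At the threshold of 3 UMIs these shares were 1.37% (0.166 to 4.86%) and 0.0733% (0.00185 to 0.407%), against 43.7% of mSTAR1302 and 4.13% of vehicle CD8 cells. Macrophage-like cells without Cd3 UMIs held a Gzma UMI in 30% of 20 mSTAR1302 cells (median 10888.5 UMIs) and 1.41% of 71 vehicle cells (median 21567), and met the threshold in 1 of the 20 (5%, 0.127 to 24.9%) and 0 of the 71 (exact upper limit 5.06%). CD4 cells without Foxp3 met it in 2.28% of 791 and 1.13% of 622 cells, and T cells without Cd4 or Cd8 UMIs in 5.86% of 648 and 0 of 980, which allows a share of up to 0.306% by 3 counts of the total and 0.376% by the exact interval.

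Of the label's markers, Gzma was fixed by the rule. The other 5 were higher in Gzma-rich cells of the mSTAR1302 library by level and by share of cells, while in the vehicle library this held for Ccl5, Gzmk and Ly6c2, and Klf3 and Plac8 rested on few cells. Ccl5, a chemokine for effector T cells, was at 4205 CPM in Gzma-rich cells and 1811 CPM in the other CD8 cells of the mSTAR1302 library, and at 9482 and 884 CPM in the vehicle library. Gzmk was at 150 and 59.3 CPM, and at 205 and 15.1 CPM in the vehicle library. Ly6c2, a surface protein of activated and memory CD8 cells, was at 781 and 435 CPM, and at 397 and 158 CPM in the vehicle library. These 3 were higher in Gzma-rich cells of both libraries, but Ly6c2 and its neighbour Ly6c1 are near-identical, so reads may be split between them. Klf3, a Kruppel-like transcription factor, was at 107 and 51.4 CPM in the mSTAR1302 library and at 34.6 and 15.7 CPM in the vehicle library, where 15 UMIs carried it and the level was 17.4 CPM without its 3 highest cells. Plac8, first described in placenta and found in lymphoid and myeloid cells, was at 1229 and 723 CPM in the mSTAR1302 library and at 235 and 182 CPM in the vehicle library. There the median Gzma-rich cell had 0 Plac8 UMIs, the 3 highest cells held 50% of them, and without those cells the level was 130 CPM. The other CD8 cells were not trimmed alike, so that level cannot be ranked against theirs.

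To read shares at 1 depth, each cell was thinned to 3000 UMIs and kept in the group that it had at full depth. This left 1835 Gzma-rich and 3604 other CD8 cells of the mSTAR1302 library and 48 and 1911 of the vehicle library. In the mSTAR1302 library Gzmk was found in 32.6% of Gzma-rich and 13.8% of other CD8 cells, Ly6c2 in 79.3% and 52.7%, Plac8 in 83.4% and 60.2%, Klf3 in 24.4% and 12.96%, and Ccl5 in 91.1% and 67.7%. Thinned vehicle cells held Gzmk in 39.6% and 3.98%, Ly6c2 in 41.7% and 19.0%, Plac8 in 18.8% and 19.5%, and Ccl5 in 87.5% and 32.9%. Klf3 was found in 8.33% (2.32 to 20.0%) and 4.45% (3.57 to 5.47%) of them, intervals that overlap. Cells with Cd4 and Foxp3 thinned alike held Gzmk in 2.24% of mSTAR1302 and 0.155% of vehicle cells and Plac8 in 12.7% and 5.82%. Unthinned, Gzmk was found in 51.5% of Gzma-rich and 23.4% of other CD8 cells of the mSTAR1302 library and in 53.1% and 7.72% of the vehicle library, beside 2.74% and 0.513% of cells with Cd4 and Foxp3. Unthinned Ly6c2 shares were 87.9% and 61.5% (mSTAR1302) and 55.1% and 26.5% (vehicle), those of Plac8 88.9% and 69.0% and 30.6% and 30.9%, and those of Ccl5 95.5% and 79.7% and 91.8% and 46.7%. At full depth, 39.4% of mSTAR1302 and 22.4% of vehicle Gzma-rich cells held 4 of the 5 markers other than Gzma, and 20.96% and 2.04% held all 5. Of other CD8 cells, 21.5% (mSTAR1302) and 3.58% (vehicle) held 4, and 7.28% and 0.697% held all 5.

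At the threshold itself, mSTAR1302 cells with exactly 3 Gzma UMIs (206 cells, just inside) and exactly 2 (351 cells, just outside) were close for most of the genes looked at. Ccl5 was at 4143 and 3711 CPM, Gzmk at 86.5 and 85.1 CPM, Plac8 at 961 and 848 CPM, Pdcd1 at 57.7 and 64.2 CPM, Lag3 at 99.8 and 112 CPM, and Nkg7 at 1460 and 1404 CPM. Wider gaps were seen for Prf1, at 77.6 and 133 CPM, and Ccl3, at 520 and 1175 CPM. Among vehicle cells these groups had 8 and 17 cells.

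**Figure D2:**
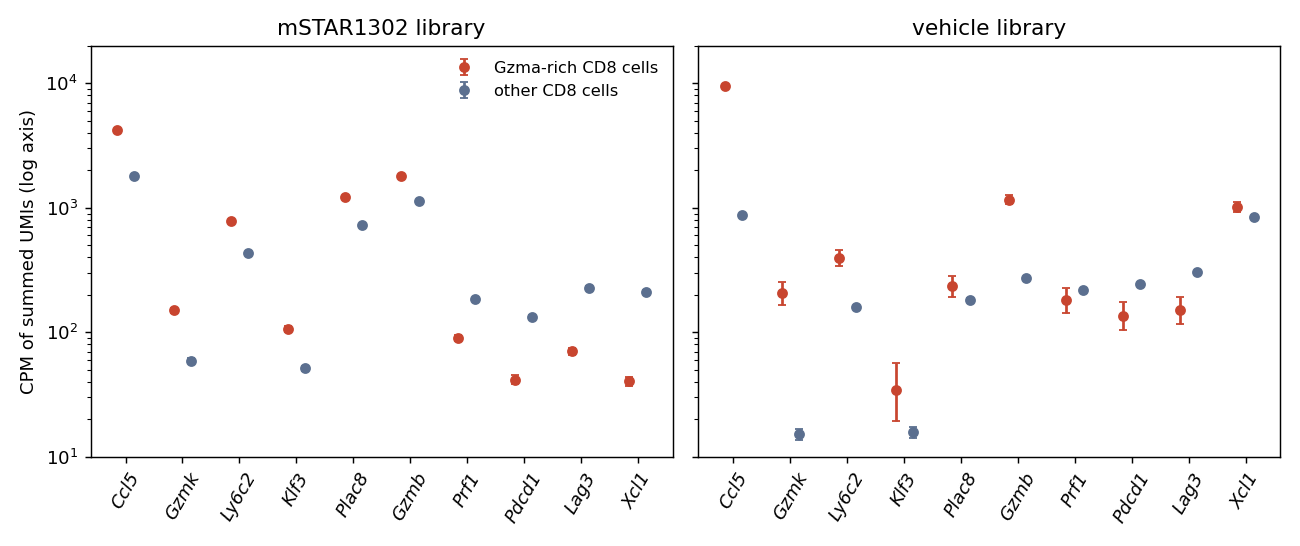
Level of 10 genes in CPM of summed UMIs (vertical log axis) in Gzma-rich and other CD8 cells of the mSTAR1302 (left) and vehicle (right) libraries; points are values and bars exact 95% Poisson intervals. The markers from Ccl5 to Plac8 and Gzmb are higher in Gzma-rich cells in both panels, while Xcl1 stands at 40.4 against 213 CPM in the mSTAR1302 panel and at 1021 against 841 CPM in the vehicle panel, where 3 cells held 86.7% of it. Klf3 and Plac8 in the vehicle panel rest on few cells, and Plac8 was found there in 30.6% of Gzma-rich and 30.9% of other CD8 cells.

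Few genes set the Gzma-rich cells above the other CD8 cells of the mSTAR1302 library, and more were lower in them. Of 5069 genes with at least 20 CPM in either group, 10 passed 2-fold in the higher direction (0.197%) and 167 in the lower (3.29%). With cells thinned to 3000 UMIs and chosen anew by the rule, or with cells weighted equally, 4 were higher. Outside the genes of the rule, those named here reached 50 CPM and had an interval past 1.5-fold. Only 6 qualified as higher, namely Gzmk, Esm1, Ccl5, Klf3, Ccr2 and Emilin2, and 60 as lower. Among vehicle cells 201 of 5725 genes were 2-fold higher (3.51%) and 382 lower (6.67%), with 51 and 72 that qualified by name, but its 49 cells give many of these from few UMIs. Outside the rule genes, 4923 genes were tested in both libraries. Of 7 higher in the mSTAR1302 library and 116 in the vehicle library, 5 were shared (71.4% and 4.31%), which were Ccl5, Ccr2, Esm1, Gzmk and Klf3. Of 131 and 218 lower, 71 were shared (54.2% and 32.6%), many of them cell cycle genes such as Cdk1 and Cenpf, which the rule keeps low in both libraries. Against other CD8 cells held to the same exclusions, 4821 genes were tested in both. Gzmk and Esm1 were then the 2 shared among 3 and 119 higher (66.7% and 1.68%), and 43 were shared among 78 and 173 lower (55.1% and 24.9%).

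Among the granule genes, Gzmk was 2-fold higher in Gzma-rich cells of both libraries, and most others did not pass 2-fold. Prf1 was 2-fold lower in mSTAR1302 Gzma-rich cells against all other CD8 cells, but not against the ones that passed the exclusions. Gzmk was 2.54-fold higher in the mSTAR1302 library (interval 2.38 to 2.70) and 13.6-fold higher in the vehicle library (10.6 to 17.2). Gzmb was at 1789 CPM in Gzma-rich and 1126 CPM in other CD8 cells of the mSTAR1302 library, a ratio of 1.59 (1.56 to 1.61), and at 1164 and 272 CPM in the vehicle library, a ratio of 4.28 (3.90 to 4.69). Both cleave proteins inside target cells. Prf1 was at 89.6 and 186 CPM in the mSTAR1302 library, which is 2.07-fold lower in Gzma-rich cells (1.95 to 2.21). In the other mSTAR1302 CD8 cells that passed the exclusions it was at 151 CPM, a gap that did not reach 2-fold. Vehicle Prf1 was at 182 and 218 CPM, where the ratio of 0.834 had an interval of 0.659 to 1.04. Nkg7, a granule membrane protein, differed little at 1676 and 1646 CPM, and stood at 2485 and 1705 CPM in the vehicle library. Of 18 granule genes tested besides Gzma, 1 was 2-fold higher (Gzmk) and 3 lower (Gzmc, Prf1 and Stx11) in the mSTAR1302 library, with a median log2 ratio of 0.01 against -0.00 over all genes. Among vehicle cells 2 of 18 were higher and 1, Gzmc, was lower, with a median of -0.03 against -0.01. Gzmc was at 9.21 and 67.5 CPM in the mSTAR1302 library and at 2.31 and 58.5 CPM in the vehicle library, and lies in the cluster of Gzmd, Gzme and Gzmf, which the rule limits.

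Esm1, which encodes a secreted proteoglycan, lies on the plus strand at chr13:113209659-113218098, inside the extent that GENCODE M21 gives Gzmk on the other strand. Esm1 was at 67.1 CPM in Gzma-rich and 27.1 CPM in other CD8 cells of the mSTAR1302 library (2.47-fold, 2.25 to 2.71), and at 34.6 and 4.27 CPM in the vehicle library. The RefSeq promoter of Gzmk printed above, at chr13:113180916-113181215 on the minus strand, places Esm1 before the start of that Gzmk transcript and not inside it. The sources used here do not say that counting used strand, and whether reads of the 2 genes were mixed was not tested.

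Chemokines other than Ccl5 were lower in Gzma-rich cells of the mSTAR1302 library. In the mSTAR1302 library 1 of 6 was 2-fold higher in Gzma-rich cells (Ccl5, 2.32-fold, 2.30 to 2.35) and 5 were lower (Ccl1, Ccl3, Ccl4, Xcl1 and Cxcl10), with a median log2 ratio of -1.85. Xcl1, which draws cross-presenting dendritic cells, was at 40.4 and 213 CPM, Ccl3 at 295 and 1383 CPM, and Ccl4 at 653 and 1804 CPM. Ccl3 and Ccl4 are inflammatory chemokines of activated T cells. Ifng, the gene of interferon-gamma, was likewise at 619 CPM in Gzma-rich and 1775 CPM in other CD8 cells, 2.87-fold lower (2.80 to 2.93). These gaps include cells that the rule excludes, and mSTAR1302 CD8 cells over the limit for Il2, Il3 and Csf2 held Xcl1 at 1770 CPM. In the other mSTAR1302 CD8 cells that passed the exclusions, Xcl1 was at 116 CPM. Ifng in those with 0, 1 and 2 Gzma UMIs was at 1078, 1633 and 1124 CPM. Among vehicle cells the order of the summed levels was the other way for each, with Xcl1 at 1021 and 841 CPM, Ccl3 at 1487 and 795 CPM, Ccl4 at 2471 and 1006 CPM and Ifng at 1794 and 1107 CPM. Those vehicle sums rest on very few cells. The 3 highest cells held 86.7% of Xcl1, 69.3% of Ccl3, 71.4% of Ccl4 and 68.4% of Ifng UMIs of the 49 Gzma-rich cells. Without each gene's 3 highest cells the vehicle Gzma-rich levels were 147 CPM for Xcl1, 504 CPM for Ccl3, 762 CPM for Ccl4 and 621 CPM for Ifng. The other vehicle CD8 cells were not trimmed alike, so these levels cannot be ranked against theirs. Xcl1 was also found in fewer Gzma-rich than other vehicle CD8 cells, 26.5% and 49.8% at full depth and 18.8% and 35.4% thinned, beside 7.59% and 15.1% at full depth and 3.71% and 10.5% thinned in the mSTAR1302 library.

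Of the receptors for migration, Ccr2 was 2-fold higher in both libraries. This receptor for Ccl2 was at 227 and 111 CPM in the mSTAR1302 library (2.05-fold, 1.95 to 2.15) and at 157 and 41.8 CPM in the vehicle library (3.75-fold, 2.89 to 4.80). Cxcr3, the receptor for interferon-induced chemokines, was at 66.1 and 41.4 CPM and at 39.2 and 20.3 CPM in the vehicle library. Cxcr6, a receptor of resident T cells, was alike at 308 and 314 CPM, and at 237 and 242 CPM in the vehicle library. Ccr7, which leads cells to lymph nodes, was 3.03-fold lower in the mSTAR1302 library at 39.7 and 120 CPM, and lower in the vehicle library at 78.4 and 451 CPM. In the mSTAR1302 library 1 of 8 such receptors was 2-fold higher and 1 lower, with a median log2 ratio of 0.53. Among vehicle cells 5 of 9 were higher, among them Ccr2 and Cxcr4, and 1 was lower, with a median of 1.00. Of adhesion genes, Itga4, a subunit of the integrin VLA-4, was 5.95-fold higher in the vehicle library (224 and 37.6 CPM) and 1.49-fold higher in the mSTAR1302 library (93.6 and 62.6 CPM).

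Of 14 inhibitory receptors and genes of chronic stimulation tested in the mSTAR1302 library, 6 were 2-fold lower in Gzma-rich cells and 0 were higher, beside 3.29% and 0.197% of all genes, with a median log2 ratio of -0.76. Pdcd1 was at 41.5 CPM in Gzma-rich and 133 CPM in other CD8 cells (3.22-fold lower, 2.95 to 3.51), Lag3 at 70.6 and 228 CPM (3.23-fold lower, 3.03 to 3.46), and Tox at 7.14 and 25.6 CPM (3.59-fold lower, 2.92 to 4.46). The others were Cd160, Cd200 and Rgs16, a regulator of G protein signalling at 62.9 and 217 CPM. In the vehicle library Pdcd1 was at 136 and 243 CPM, Lag3 at 152 and 303 CPM and Tox at 32.3 and 82.2 CPM, each lower in Gzma-rich cells. Havcr2, the gene of TIM-3, was at 104 and 55.6 CPM, but 3 cells held 48.9% of the 45 UMIs behind the first value, which was 57.4 CPM without them. There 2 of 16 were 2-fold higher (Entpd1 and Cd38) and 4 lower (Ctla4, Nt5e, Tox and Cd200). Against other mSTAR1302 CD8 cells that passed the same exclusions, Pdcd1 was 2.85-fold lower (2.60 to 3.14), Lag3 2.96-fold lower and Tox 4.10-fold lower.

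Transcription factors and memory genes differed less. Zeb2, a repressor found in terminal effector cells, was at 29.0 and 70.3 CPM in the mSTAR1302 library, 2.42-fold lower in Gzma-rich cells, and at 106 and 145 CPM in the vehicle library. Irf8 was at 55.0 and 171 CPM. Eomes, a T-box factor of memory CD8 cells, was at 22.9 and 14.6 CPM, and its relative Tbx21 at 30.9 and 37.4 CPM. Tcf7, a factor of naive and stem-like T cells, was level at 46.9 and 47.0 CPM, while its relative Lef1 was at 83.6 and 54.6 CPM. Of 19 effector factors, 0 were 2-fold higher and 2 (Zeb2 and Irf8) lower in the mSTAR1302 library, with a median log2 ratio of -0.10. Of 14 naive and memory genes 1 was higher (Klf3) and 2 lower (Ccr7 and Xcl1), with a median of 0.25.

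Genes of the interleukin-2 pathway and of the interferon response differed by less than 2-fold. Il2ra, the high-affinity receptor subunit, was at 264 CPM in Gzma-rich and 226 CPM in other CD8 cells of the mSTAR1302 library, and Il2rb, the signalling subunit, at 273 and 272 CPM. Of 14 genes of that pathway 0 were 2-fold higher or lower, with a median log2 ratio of 0.18. Interferon-induced genes outside the rule had 0 of 20 past 2-fold, with 18 of 20 higher in Gzma-rich cells and a median of 0.27, although the rule removed cells with more than 2 UMIs of Ifit1, Ifit3 and Rsad2. Glycolysis genes had 0 of 16 past 2-fold, with a median of -0.22. Cell cycle genes had 14 of 20 lower with a median of -1.75, and the lowest named genes (Cenpf, Nusap1, Rrm2 and histones) were of this kind, which follows from a rule that excludes cycling cells. Against other CD8 cells under the same exclusions, 0 of 11 cell cycle genes were past 2-fold, and 6 of 4930 genes were 2-fold higher (0.122%) and 82 lower (1.66%). The same comparison in the vehicle library gave 208 of 5670 higher (3.67%) and 325 lower (5.73%). The remaining named lower genes included Il13, a type 2 cytokine, at 4.29 and 58.8 CPM, Nrgn at 13.9 and 130 CPM and Cd200, an inhibitory ligand, at 8.36 and 80.9 CPM.

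In the vehicle library the other named genes that were higher in Gzma-rich cells included Rasgrp2 (78.4 and 16.0 CPM), an activator of Rap1, Cxcr4 (111 and 24.1 CPM), Rasa3, Slamf7, S1pr1, the exit receptor for sphingosine 1-phosphate (55.3 and 15.1 CPM), and Cd7. The 3 highest cells held 70.8% of S1pr1, 57.7% of Cd7 and 41.7% of Cxcr4 UMIs, and without them S1pr1 was at 17.4 CPM. The other CD8 cells were not trimmed alike. The named lower ones included Dapl1 with 0 UMIs against 93.2 CPM, at least 13.5-fold lower against a floor of 3 UMIs, and the myeloid or stromal genes Wfdc17, Ccl8, Grn and Cald1 with 1 UMI each.

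Markers of other cells moved with the vehicle comparison. The 10 macrophage markers summed to 104 CPM in Gzma-rich and 81.0 CPM in other CD8 cells of the mSTAR1302 library, and to 138 and 862 CPM in the vehicle library, where 8 of 8 tested were lower in Gzma-rich cells. The 6 dendritic cell markers, of which Cst3 was 2-fold lower in Gzma-rich cells of both libraries, summed to 104 and 226 CPM in the mSTAR1302 library and to 134 and 626 CPM in the vehicle library. The 8 NK cell markers summed to 28.4 and 31.0 CPM and to 59.9 and 150 CPM, the 8 gamma delta T cell markers to 10.4 and 15.4 CPM and to 23.1 and 26.8 CPM, and the 6 B cell markers to 22.7 and 13.5 CPM and to 9.22 and 11.2 CPM. Fibroblast markers summed to 2.64 and 47.8 CPM and to 2.31 and 108 CPM, tumour markers to 14.7 and 22.7 CPM and to 30.0 and 37.4 CPM, endothelial markers to 29.6 and 23.3 CPM and to 11.5 and 16.1 CPM. Neutrophil markers were at most 2.36 CPM and erythroid markers at most 0.131 CPM in any group. T cell markers summed to 3615 and 3474 CPM and to 3799 and 3431 CPM. In vehicle Gzma-rich cells 1 of 10 macrophage, 4 of 8 NK cell, 5 of 8 gamma delta T cell, 4 of 6 B cell and 4 of 6 dendritic cell markers were at 0. The part of these in the gene differences was not tested, apart from the removal of cells with such markers given in the closing section. In the mSTAR1302 Gzma-rich cells 1 cell held 72.2% of the 580 Lyz2 UMIs, and 1 cell held 80.1% of the 487 Il1b UMIs.

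Gene levels followed the Gzma count in the mSTAR1302 library also below the threshold. From cells without Gzma (1570 cells) over those with 6 to 10 UMIs (492) to those with more than 40 (216), Gzmk was at 35.6, 132 and 214 CPM, Gzmb at 889, 1589 and 2316 CPM, and Plac8 at 587, 1179 and 1370 CPM. Ccl5 was at 2082 CPM without Gzma, highest at 4661 CPM in cells with 11 to 20 UMIs, and at 3345 CPM over 40. Pdcd1 was at 139, 44.2 and 50.7 CPM, Lag3 at 236, 83.6 and 63.3 CPM, Tox at 36.9, 7.93 and 5.80 CPM, and Zeb2 at 75.3, 26.5 and 11.6 CPM. The decline of Pdcd1, Lag3 and Tox lay mostly under 6 Gzma UMIs, while Gzmk kept climbing. Tcf7 was at 63.2, 46.1 and 25.1 CPM. Median depth also went with Gzma, at 5436, 5983 and 9062 UMIs, and its part in these levels was not tested, although CPM scale by the sum. Near-empty droplets of this library held Gzma at 916 CPM. The part of such UMIs in the bins below the threshold was not tested either.

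**Figure D3:**
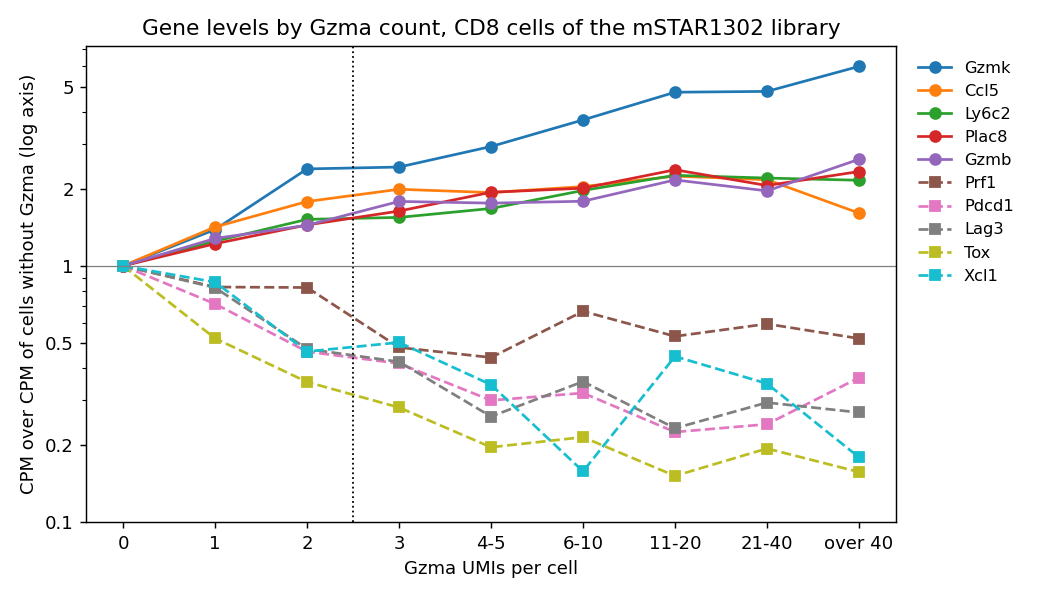
CPM of 10 genes by Gzma UMIs per cell (horizontal axis) over their CPM in cells without Gzma (vertical log axis), for the 4551 mSTAR1302 CD8 cells that passed the exclusions; the dotted line marks the threshold, and each line is 1 gene. Gzmk climbs throughout, to 214 CPM over 40 UMIs against 35.6 CPM without Gzma, and Pdcd1, Lag3 and Tox are lower in every bin with Gzma.

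Receptor segments, which the rule did not use, differed as well. A Trbv UMI was captured in 24.8% of mSTAR1302 Gzma-rich cells (490 of 1975) and 25.8% of other CD8 cells. Trbv13-2 and Trbv13-3, the segments that mSTAR1302 is said to bind, took 61.2% of the 636 Trbv UMIs of Gzma-rich cells (57.3 to 65.0%). Their share of the 1478 UMIs in other CD8 cells was 36.5% (34.0 to 39.0%), which is a gap of 24.7 points (20.1 to 29.1). Against the other CD8 cells that passed the exclusions the gap was 22.8 points (17.6 to 27.8). In the vehicle library they made up 23.8% of 21 Trbv UMIs in Gzma-rich cells and 13.8% of 712 in others, and the gap of 10.0 points had an interval that includes 0 (-3.41 to 31.5). Between Gzma-rich cells of the 2 libraries the difference was 37.4 points (15.7 to 51.0), and between other CD8 cells 22.7 points (19.1 to 26.1). With cells thinned and the rule applied anew to the thinned counts, the difference between Gzma-rich cells of the libraries was 61.3 points. Then 40 vehicle Gzma-rich cells were left, and the interval of 11.8 to 67.4 includes 37.4. Near-empty droplets held 33.7% in the mSTAR1302 library and 10.96% in the vehicle library.

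By segment, Trbv13-3 was 44.7% of Trbv UMIs in Gzma-rich and 23.3% in other CD8 cells of the mSTAR1302 library, Trbv13-2 16.5% and 13.2%, and Trbv12-2 21.1% and 16.8%. Trbv2 was 1.89% and 11.9%, Trbv19 2.99% and 9.07%, Trbv14 0.314% and 5.35%, and Trbv5 0.629% and 3.18%. Reads of near-identical segments may be assigned to each other, so the split among Trbv12 and Trbv13 members is uncertain. Read the other way, 41.6% of 783 mSTAR1302 CD8 cells with Trbv13-2 or Trbv13-3 were Gzma-rich and 21.3% of 769 with only another segment, a difference of 20.3 points (15.7 to 24.7). The share was 46.3% with Trbv13-3, 36.6% with Trbv12-2, 32.3% with Trbv13-2, 14.3% with Trbv19, 8% with Trbv2, 6.12% with Trbv5 and 3.23% with Trbv14. In the vehicle library it was 4 of 82 and 9 of 431. Along the Gzma count the share of Trbv13-2 and Trbv13-3 was 34.2% without Gzma, 40.1% at 1 UMI, 52.2% at 2, 53.6% at 3 and between 59.4% and 67.4% in the higher bins.

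**Figure D4:**
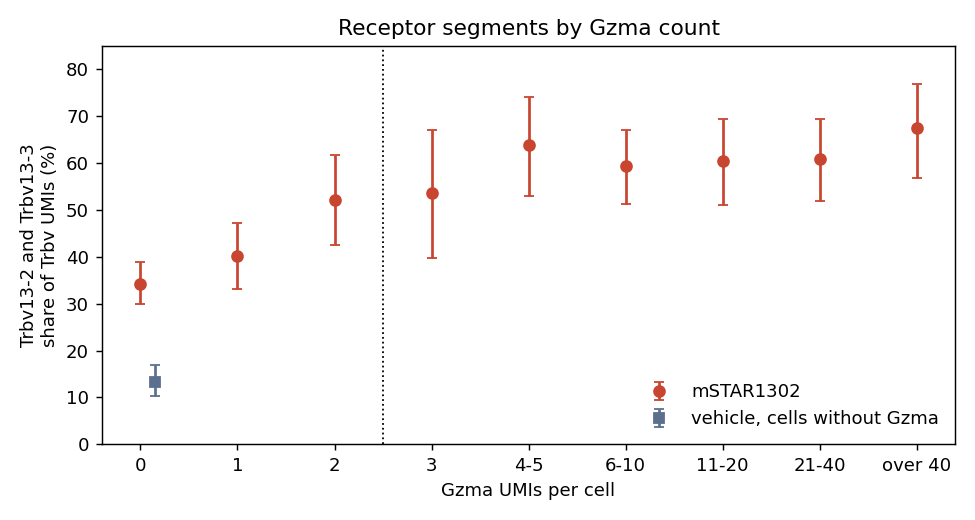
Share of Trbv UMIs from Trbv13-2 and Trbv13-3 (vertical axis, percent, with exact 95% intervals) by Gzma UMIs per cell (horizontal axis) in mSTAR1302 CD8 cells that passed the exclusions, beside vehicle cells without Gzma; the dotted line marks the threshold. The share is 34.2% without Gzma and at least 53.6% in each bin past the threshold, and 13.3% in the vehicle cells. The intervals treat UMIs as independent, although a cell can hold several.

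Within the Gzma-rich cells of the mSTAR1302 library, a split by segment that was chosen after values were seen set 326 cells with Trbv13-2 or Trbv13-3 against 164 with only another segment. Median depth was 7886 and 7694 UMIs. Of the granule genes, 3 were close, with Gzmk at 144 and 142 CPM, Prf1 at 91.5 and 92.9 CPM and Gzmb at 1876 and 1666 CPM. Gzmc was not, at 3.99 and 17.7 CPM from 11 and 24 UMIs (ratio 0.226, 0.0998 to 0.479). Pdcd1 was at 30.5 and 81.1 CPM (ratio 0.376, 0.280 to 0.504), Havcr2 at 45.4 and 108 CPM (0.422, 0.329 to 0.539), and Rgs16 at 30.9 and 116 CPM (0.265, 0.201 to 0.347). Tox was low in both, at 6.17 and 5.90 CPM, while Lef1 was at 94.7 and 56.7 CPM. Of 4992 genes, 24 were 2-fold higher and 24 lower (0.481% each). Il1b at 143 and 1.47 CPM and Cxcl2 at 73.0 and 2.95 CPM, of which 1 Gzma-rich cell held 80.1% and 48.0% of UMIs, led the higher ones. Xcl1 was at 18.9 and 125 CPM, but 3 cells held 84.7% of the UMIs behind the value for other segments. The other mSTAR1302 CD8 cells split alike for Pdcd1, at 76.4 and 218 CPM, and Havcr2, at 63.5 and 184 CPM, while their Prf1 was at 121 and 320 CPM. In other vehicle CD8 cells, Pdcd1 was at 201 and 246 CPM, Havcr2 at 58.7 and 53.8 CPM and Prf1 at 286 and 219 CPM.

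A split by Gzmk, also chosen after values were seen, gave 1017 Gzma-rich mSTAR1302 cells with Gzmk and 958 without. Of 4911 genes 2 were 2-fold higher with Gzmk, including Gzmk itself (0.0407%), and 14 lower (0.285%). Ccl3 was at 136 CPM with Gzmk and 493 CPM without, Ccl4 at 416 and 948 CPM, and Eomes at 27.2 and 17.5 CPM, with median depths of 6959 and 5761.5 UMIs. Genes of myeloid cells moved with this split, with Lyz2 at 12.9 and 77.0 CPM and Spp1 at 19.9 and 58.1 CPM, while Il1b was at 50.8 and 14.8 CPM. Cells with more than 20 Gzma UMIs (539) against those with 3 to 5 (517) had 3 of 4964 genes 2-fold higher (0.0604%) and 19 lower (0.383%). There Esm1 was at 93.2 and 32.6 CPM (2.86-fold, 2.31 to 3.57) and Tcf7 at 32.3 and 65.5 CPM. The lower genes were led by Cd14 (1.09 and 58.5 CPM), Cxcl2 (2.18 and 53.9 CPM), Ctsl (3.71 and 75.8 CPM) and Lyz2 (7.64 and 136 CPM), genes that myeloid cells express. A single Gzma-rich cell held 72.2% of Lyz2 and 71.0% of Ctsl UMIs, and the part of such cells in these splits was not tested.

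The populations that the exclusions set apart differed in how much Gzma they held. In the mSTAR1302 library 63.8% of 329 CD8 cells over the interferon limit and 59.7% of 746 over the cycling limit had at least 3 Gzma UMIs, against 11.8% of 422 over the limit for Gzmd, Gzme and Gzmf and 16.9% of 219 over that for Il2, Il3 and Csf2. Trbv13-2 and Trbv13-3 took 51.9%, 42.4%, 14.2% and 11.4% of their Trbv UMIs in that order. Gzmk was at 123, 90.4, 13.5 and 10.7 CPM in the same 4 groups, beside 150 CPM in Gzma-rich cells. Prf1 was at 89.6 CPM in Gzma-rich cells, 96.1 CPM over the interferon limit, 138 CPM over the cycling limit and 521 CPM in cells rich in Gzmd, Gzme and Gzmf. Cells over the interferon limit were near the Gzma-rich cells or above them in several genes. Gzma-rich cells had Pdcd1 at 41.5 CPM, Ly6c2 at 781 CPM, Plac8 at 1229 CPM and Gzmb at 1789 CPM. Cells over the interferon limit had Pdcd1 at 48.7 CPM, Ly6c2 at 956 CPM, Plac8 at 1645 CPM and Gzmb at 2061 CPM, with Ccl5 at 2461 CPM beside 4205 CPM. These counts overlap where a cell was over more than 1 limit.

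Gzma-rich cells also differed between the libraries, with the reserve that the vehicle group had 49 cells. Of 5398 genes, 121 were 2-fold higher in mSTAR1302 (2.24%) and 323 lower (5.98%), and the median log2 ratio of all genes was -0.14. The split of calls was 27.3% higher, and 45.4% higher (191 higher and 230 lower) once that median was set to 0. In other CD8 cells 51 of 5416 genes were 2-fold higher (0.942%) and 164 lower (3.03%), with a median of -0.12.

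Plac8 was at 1229 CPM in mSTAR1302 and 235 CPM in vehicle Gzma-rich cells (5.23-fold, 4.30 to 6.41), and at 723 and 182 CPM in the other CD8 cells (3.98-fold). Klf3 was at 107 and 34.6 CPM (3.09-fold, 1.87 to 5.53), and at 51.4 and 15.7 CPM in the others. Gzmb was at 1789 and 1164 CPM, Gzmk at 150 and 205 CPM, Ccl5 at 4205 and 9482 CPM (2.25-fold lower) and Prf1 at 89.6 and 182 CPM (ratio 0.492, 0.392 to 0.625). Of 17 granule genes 0 were 2-fold higher and 2 lower (Prf1 and Stx11), with a median log2 ratio of -0.14, the same as all genes. With the median of all genes set to 0, 1 was higher and 1 lower.

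Of 15 inhibitory genes, 9 were 2-fold lower in the mSTAR1302 Gzma-rich cells and 0 were higher, with a median of -1.25, or 8 lower and -1.11 after that shift. Pdcd1 was at 41.5 and 136 CPM (3.28-fold lower, 2.46 to 4.29), Rgs16 at 62.9 and 318 CPM (5.06-fold lower, 4.19 to 6.06) and Cd200 at 8.36 and 59.9 CPM (7.17-fold lower). Of the 26 vehicle Cd200 UMIs 3 cells held 76.9%, and 15.6 CPM were left without them. The 3 cells highest in Rgs16 held 57.2% of its vehicle UMIs, with 147 CPM left. In other CD8 cells 5 of 15 were lower, with a median of -0.55. Chemokines had 4 of 6 lower (Ccl3, Ccl4, Ccl5 and Xcl1) and a median of -1.55. Without the 3 Gzma-rich cells of each library with the most Xcl1, Ccl3 and Ccl4 together, Xcl1 was at 35.8 and 470 CPM, Ccl3 at 223 and 554 CPM, Ccl4 at 540 and 792 CPM and Ifng at 592 and 658 CPM, while Pdcd1 was at 40.8 and 134 CPM and Plac8 at 1233 and 253 CPM. Without those cells the level in mSTAR1302 was 13.1-fold lower for Xcl1, 2.49-fold for Ccl3, 1.47-fold for Ccl4, 1.11-fold for Ifng and 4.56-fold for Cd200, against 25.3-fold, 5.05-fold, 3.79-fold, 2.90-fold and 7.17-fold with them. That of Pdcd1 was 3.29-fold lower and that of Plac8 4.86-fold higher, near the values with them.

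Of 19 interferon-induced genes 3 were 2-fold higher (Ifi27l2a, Gbp5 and Ifi47), with a median log2 ratio of 0.55, beside 1 of 20 and 0.65 in other CD8 cells. Ifi27l2a was at 915 and 339 CPM (2.70-fold, 2.29 to 3.20). Of 4 Ly6 genes 1 was 2-fold higher (Ly6c1, 683 and 318 CPM) with a median of 0.94, against 2 of 4 and 1.19 in the others. Of 14 interleukin-2 pathway genes 1 (Pim2, 47.0 and 20.7 CPM) was higher, with a median of 0.10, and Il2ra was at 264 and 175 CPM. With the median of all genes set to 0, the counts were 4 of 19 interferon-induced, 3 of 4 Ly6 and 1 of 14 interleukin-2 pathway genes. Of the other named higher genes, the heat shock genes Hspa1b (86.1 and 6.92 CPM) and Hspa1a, Emilin2, Lilrb4a, Ms4a4c, Il4ra, Cdkn1a, Kbtbd11, Osbpl9 and Mrpl21 rested on 3 to 20 vehicle UMIs each. The other named lower genes were Areg, an epidermal growth factor receptor ligand (9.07 and 66.9 CPM), Serpina3g, Nrgn, Eea1, Crtam, Zdhhc2 and Csf1 (41.9 and 157 CPM). Their vehicle levels also rested on few cells. The 3 highest cells held 72.4% of Areg, 75% of Nrgn, 87.0% of Serpina3g, 57.7% of Eea1, 58.3% of Crtam, 44% of Zdhhc2 and 54.4% of Csf1 UMIs, and without them Areg was at 20.2 CPM, Eea1 at 55.1 CPM and Csf1 at 76.3 CPM.

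**Figure D5:**
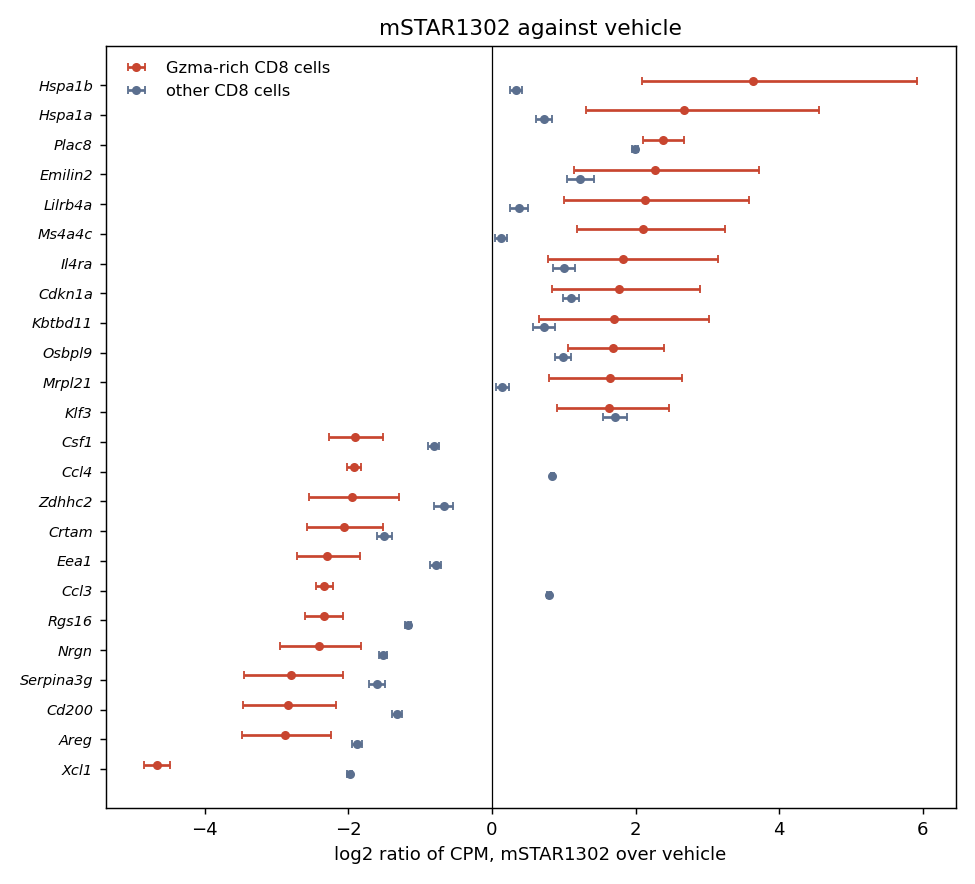
Log2 ratio of CPM in mSTAR1302 over vehicle (horizontal axis, with exact 95% counting intervals) for the 24 named genes, in Gzma-rich and other CD8 cells. Ccl3 and Ccl4 lie on opposite sides of 0 in the 2 groups, with Ccl4 at 653 and 2471 CPM in Gzma-rich cells of mSTAR1302 and vehicle and at 1804 and 1006 CPM in other CD8 cells.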

How the data were processed

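Droplet 3' libraries of tumour T cells were analysed, 1 from mSTAR1302-treated and 1 from vehicle-treated mice. The deposited raw matrices hold UMI counts per gene and barcode, unnormalised, made by the authors with Cell Ranger on mm10; its version is 6.0.1 per the submitters' processing notes and 4 per the file headers. The file headers hold 32285 genes, and 0 columns belonged to other samples. Barcodes with at least 1000 UMIs, 500 genes and at most 10% mitochondrial UMIs were kept. Counts were summed per cell group and scaled to CPM, with exact Poisson intervals for levels, exact conditional intervals for ratios, Clopper-Pearson intervals for shares and Newcombe intervals for their differences, at 95%. Genes of at least 20 CPM in either group were compared, 2-fold was the call, and list medians used log2 ratios with a pseudocount of 1 CPM. Genes named first in each comparison were the 12 with the largest fold each way, of at least 50 CPM and with an interval beyond 1.5-fold, without genes of the rule, receptor segments, mitochondrial and ribosomal genes; others come from the gene lists. No doublet caller was run; leaving out the 5% of CD8 cells with the most UMIs and cells with markers of other types stood in for it. The cells, gene lists and comparisons were chosen with earlier results of these data known. The scripts were tested on simulated data, drawn as independent Poisson counts from the summed profiles. That is the model behind the intervals and holds no spread between cells, so the check does not cover such spread. Tools were SciPy 1.17.1 for intervals, pandas 2.3.3 for tables, NumPy 2.4.6 for sums, matplotlib 3.10.9 for figures, and Python 3.11.15.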

Additional observations from a re-analysis of the deposited data

Results flagged for a closer look

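Ccl4, Hmox1 and Lyz2 had opposite directions in the 2 libraries, and the difference was not tested. Ccl4 in Gzma-rich cells stood at 0.362 times its level in other CD8 cells of the mSTAR1302 library and at 2.46 times in the vehicle library. In the vehicle Gzma-rich cells 1 cell held 61.2% of its UMIs. Hmox1, the gene of heme oxygenase, stood at 2.15 times in the mSTAR1302 library, where 1 cell held 48.9% of its UMIs, and at 0.281 times in the vehicle library. Lyz2, a lysozyme of myeloid cells, stood at 2.02 times in the mSTAR1302 library, where 1 cell held 72.2% of its UMIs, and at 0.0918 times in the vehicle library. Outside CD8 cells of the mSTAR1302 library, at least 3 Gzma UMIs were found in 2.28% of CD4 cells without Foxp3 and in 5.86% of T cells without Cd4 or Cd8 UMIs, beside 1.37% of cells with Cd4 and Foxp3. T cells with both Cd4 and Cd8 UMIs, not counted as CD8 cells here, met that threshold in 25.6% of 843 cells.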

How the results depend on the processing

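Of 108 values under 13 alternatives, 71 kept within the margins used here and 37 moved past them; most are counts of genes, which have no direction of their own. The balance of higher and lower genes did turn. Between the libraries, 121 and 323 became 1849 and 1781 without cells holding markers of other types. In vehicle, 201 and 382 became 1150 and 1081 with no minimum CPM. That setting kept only genes with at least 1 UMI in both groups. A gene without UMIs in the 49 vehicle Gzma-rich cells could therefore not be called lower. Of the alternatives, 1, leaving out 3 cells per library, was added after seeing the data. The share of Gzma-rich among CD8 cells was 38.1% (mSTAR1302) and 3.21% (vehicle) from 2 Gzma UMIs on, with 75 genes higher in mSTAR1302 than in vehicle, and 26.6% and 1.75% from 5 on. With at most 5% mitochondrial UMIs the mSTAR1302 share was 34.3%. Thinned to 3000 UMIs, with the rule applied anew to the thinned counts, it was 29.2%. There 4 genes were higher in Gzma-rich than in other CD8 cells of mSTAR1302. In vehicle 690 were higher and 759 lower, and between the libraries 466 were higher and 844 lower. The gap in Trbv13 share between the libraries was then 61.3 points, with a wide interval (11.8 to 67.4) from 40 vehicle Gzma-rich cells. Without cells holding markers of other types, 1750 mSTAR1302 and 100 vehicle CD8 cells were left; the share was 33.9%, 4 genes were higher and 90 lower in mSTAR1302, 1627 and 2177 in vehicle, 1849 and 1781 between the libraries, and the Trbv13 gap in mSTAR1302 was 17.8 points. Only 3 vehicle Gzma-rich cells remained there, so that no Trbv13 gap between libraries was had. Leaving out the 5% of CD8 cells with the most UMIs, or weighting cells equally, gave 4 genes higher in mSTAR1302. Against other CD8 cells under the same exclusions 6 were higher and 82 lower. Scaling to the median ratio gave 191 higher between the libraries. At 50 CPM, where fewer genes are tested, 68 were lower in mSTAR1302, 74 higher and 115 lower in vehicle, and 38 and 99 between the libraries. With no minimum CPM, but at least 1 UMI in both groups, these were 935 higher and 1584 lower in mSTAR1302. They were 1150 and 1081 in vehicle, and 551 and 1769 between the libraries. Causes were not tested, beyond fewer cells or genes. No paired analysis was possible because each group has 1 library, and no replicate could be left out. What limits the vehicle values is the number of Gzma-rich cells, 49 with 433785 UMIs in sum, and not their depth, which had a median of 8136 UMIs per cell against 6442 in mSTAR1302.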
